A study of Mus musculus with 15 samples.

Results

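The genes described here are those for the proteins of the cytosolic ribosome, followed in tumors of 15 mice. They were chosen by symbol alone, as every gene whose symbol is Rpl or Rps, a number and at most 1 further letter a, l or x, together with Rplp0, Rplp1, Rplp2 and Rpsa. The rule took 81 of 23329 genes. Of these, 77 make up the main set, 31 for the small and 46 for the large subunit, and 4 are paralogs (Rpl3l, Rpl10l, Rpl39l and Rps27l).

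The Eμ enhancer of the EμMyc transgene confines c-Myc to the B-cell lineage, and the Th-MYCN transgene is expressed from the promoter of Th, for tyrosine hydroxylase, in neuroblasts of the sympathetic lineage. Both were compared with the same transgene in mice that lack Casp2, the gene for the protease caspase-2. The 4 EμMyc and 3 EμMyc/Casp2-/- lymphomas came from cervical lymph nodes of C57BL/6 mice, with onset at 13 to 19 weeks and at 8 to 12 weeks. The 4 Th-MYCN and 4 Th-MYCN/Casp2-/- neuroblastomas were paraspinal thoracic tumors on a mixed Sv129/C57BL6 background, with onset at 10 to 21 weeks and at 15 to 24 weeks. Each library was made from poly(A) RNA of 1 tumor, and 1 further EμMyc/Casp2-/- tumor that the study removed was not analysed here. Tumor type, tissue, transgene and strain cannot be told apart in this design, nor can genotype and age at onset among the lymphomas, whose ages do not overlap.

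A ribosome joins a small subunit, which decodes the message, to a large subunit, which links the amino acids, and most of its proteins are needed in equal numbers. Messages for these proteins usually begin at a C within a run of C and T letters, the 5′ terminal oligopyrimidine tract (TOP), through which growth signals tune their translation. MYC and MYCN bind the E-box CACGTG and are known to raise transcription of ribosomal protein genes.

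Start sites of 57 main set genes were found in the RefSeq promoter table (GRCm38.p6). A run of at least 8 letters, each C or T, lay within 20 bases on either side of the start, on the strand of the gene, in 28 of the 57 genes (49.1%), against 4965 of 27025 genes with a promoter sequence (18.4%). The sequences that follow show this run, in capitals, in 6 genes to which the results return, and its absence in Rplp0. Each has 40 bases, and the annotated start is base 21.
Rps25 (chr9:44407694-44407733, plus strand): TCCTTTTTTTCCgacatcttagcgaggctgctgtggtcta
Rpl4 (chr9:64173367-64173406, plus strand): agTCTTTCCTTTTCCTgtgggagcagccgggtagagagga
Rps12 (chr10:23787190-23787229, minus strand): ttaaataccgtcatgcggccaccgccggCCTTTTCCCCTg
Rplp2 (chr7:141447631-141447670, plus strand): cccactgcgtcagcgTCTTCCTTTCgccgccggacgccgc
Rpl15 (chr14:18270967-18271006, minus strand): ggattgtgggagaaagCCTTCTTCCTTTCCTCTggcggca
Rpl5 (chr5:107900508-107900547, plus strand): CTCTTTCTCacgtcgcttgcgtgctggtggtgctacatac
Rplp0 (chr5:115559447-115559486, plus strand): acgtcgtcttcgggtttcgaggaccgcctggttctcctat

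The E-box CACGTG, which reads the same on both strands, lay in the 300 bases around the start in 6 of the 57 genes (10.5%), which were Rpl13a, Rpl14, Rpl19, Rpl23, Rpl34 and Rps19. It was found for 2187 of the 27025 genes with a promoter sequence (8.09%), where a gene counted if any of its starts had it. A match of letters is a description, and no match says only that these letters are not in this window. Both sites shown here, with the E-box in capitals, stand for a match next to the start (offset -3) and for one well before it (offset -168).
Rpl23 (chr11:97782437-97782457, minus strand): tggacgaggtccggtCACGTG
Rpl14 (chr9:120571334-120571369, plus strand): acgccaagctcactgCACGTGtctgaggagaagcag

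The labels were checked first. Casp2 had 125 to 203 CPM (counts scaled to the TMM-adjusted total of each library) in EμMyc and 51.9 to 76.1 CPM in EμMyc/Casp2-/- tumors, with a log2 fold change of -1.35 (SE 0.26, FDR 0.0536). It had 76.0 to 125 CPM in Th-MYCN and 39.6 to 80.2 CPM in Th-MYCN/Casp2-/- tumors, which overlap, with a log2 fold change of -0.79 (SE 0.23, FDR 0.327). Neither was called, and gene counts do not show which part of Casp2 the remaining reads cover. The 6 markers of B cells summed to 1804 to 4308 CPM in the lymphomas and to 5.60 to 21.3 CPM in the neuroblastomas, and the 6 sympathoadrenal markers to 0.866 to 11.1 CPM and to 1798 to 3254 CPM. The column of counts used held 4940464 to 17638029 reads per tumor. The smallest was EuMycC2ko215, in which 11.2% of reads did not map and the 6 T-cell markers summed to 1213 CPM, against 21.3 to 135 CPM in the other lymphomas. None of the 6 was at 0 in any group, and their part in the results was not tested. Some of the results that rest on this tumor are given without it as well. Values by tumor follow the order EuMyc614, EuMyc743b, EuMyc829 and EuMyc835, then EuMycC2ko215, EuMycC2ko239 and EuMycC2ko245, then MYCN175, MYCN235, MYCN332 and MYCN391, then MYCNC2ko118, MYCNC2ko144, MYCNC2ko176 and MYCNC2ko180.

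The members took a larger part of the reads in the lymphomas. They held 3.60% ± 0.937 (SD, n = 7) of all counted reads there and 1.47% ± 0.113 (SD, n = 8) in the neuroblastomas, a ratio of 2.44. The EμMyc tumors had 4.67%, 3.33%, 3.13% and 2.82%, and the EμMyc/Casp2-/- tumors 5.19%, 3.15% and 2.89%. The Th-MYCN tumors had 1.27%, 1.43%, 1.52% and 1.46%, and the Th-MYCN/Casp2-/- tumors 1.46%, 1.49%, 1.46% and 1.69%. Thus the lowest lymphoma lay above the highest neuroblastoma, and tumors EuMyc614 and EuMycC2ko215 stood above the other lymphomas. Without those 2 tumors the lymphomas held 3.06% ± 0.205 (SD). The part of reads that mapped to several places was also highest in them, at 24.2% and 23.1%, against 19.4% to 20.7% in the other lymphomas and 15.0% to 17.7% in the neuroblastomas. Such reads are not counted, and their part in the result was not tested. The share rests on 150836 to 551310 reads per tumor. In bulk tissue a change in the kinds of cells and a change in RNA per cell cannot be told apart.

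**Figure D1:**
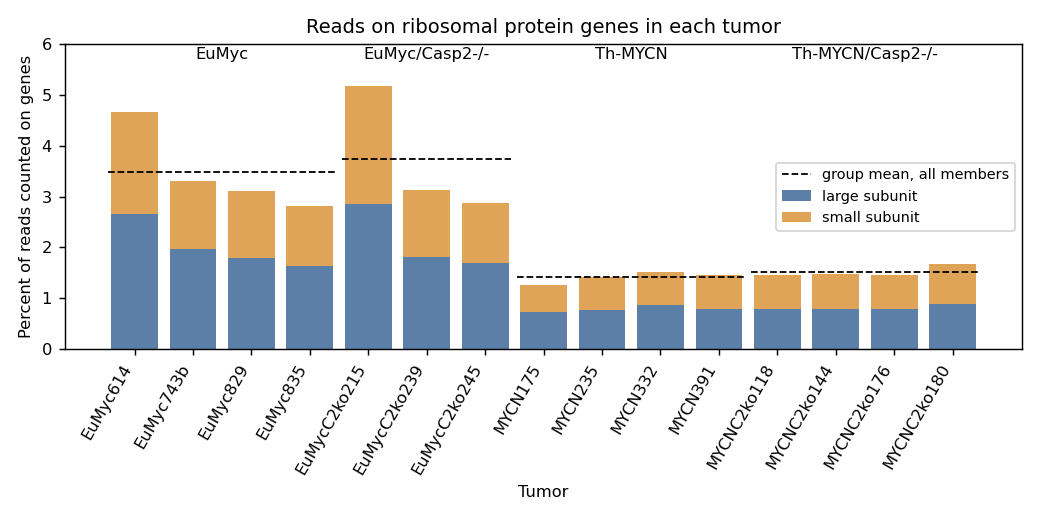
Percent of all counted reads on small and large subunit genes (stacked bars) in each of the 15 tumors, with the mean of all members per group as a dashed line. All 7 lymphomas lie between 2.82% and 5.19% and all 8 neuroblastomas between 1.27% and 1.69%.

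A few genes carried much of the share. The 5 most counted members held 1.55% of reads in the lymphomas and 0.603% in the neuroblastomas, and the rest of the members 2.05% and 0.868%. Both parts were thus higher in the lymphomas.

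The comparison of tumor types used edgeR's quasi-likelihood test across all 14880 genes over 1 CPM in at least 3 tumors, with a gene called at a false discovery rate (FDR) under 0.05. Of the 81 members 77 could be tested. Rpl26 of the main set and the paralogs Rpl3l, Rpl10l and Rpl39l did not pass the filter. Of those tested, 2, Rps29 and Rpl30, passed it through the lymphomas alone, so for them a difference was fixed in part by the filter. Between EμMyc and Th-MYCN tumors 70 members were higher and 1 lower in EμMyc, while 27.4% of all tested genes were called higher and 32.9% lower. In the comparison of EμMyc/Casp2-/- with Th-MYCN/Casp2-/-, 62 members were higher and 2 lower in the lymphomas, against 26.8% and 31.4% of all tested genes. Leaving out EuMyc614 left 66 higher in the first comparison, and leaving out EuMycC2ko215 left 59 in the second. The median log2 fold change of the members was 1.31 and 1.13, and that of all tested genes -0.04 and -0.05. Both comparisons came from separate tumors, and 62 members were higher in both (22.3% of all tested genes), 1 was lower in both, 5 were called in neither and 9 in 1 only. Without Rps29 and Rpl30, 68 of 75 were higher and 1 lower in the first comparison and 61 higher and 2 lower in the second.

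These folds are relative to the other genes of each library. When libraries were scaled to the reads of the members themselves, which moved the median of all tested genes to -1.29 and -1.19, 4 and 7 members were called higher and 9 and 9 lower in the lymphomas. The median of the members was then 0.0093 and -0.0481. Among all tested genes 7.24% and 8.87% were then called higher and 64.5% and 58.9% lower. Of the genes named below with positive values for the tumor types, Rpl36a, Rpl22l1, Rpl7l1, Rps14 and Gnb2l1 turned negative in both comparisons. Rpl8 and Rps27l did so with Casp2, and Rpl11, Rpl36al and Rps4x without. Values of Rps7, also named below, are not given with this scaling. The median of the mitochondrial list given below turned to -0.73 and -0.56. That of the list of TOP messages turned to -0.35 and -0.26. For the hosts of small nucleolar RNAs it became -0.17 and -0.14. Every direction given for tumor types is thus one relative to the other genes.

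**Figure D2:**
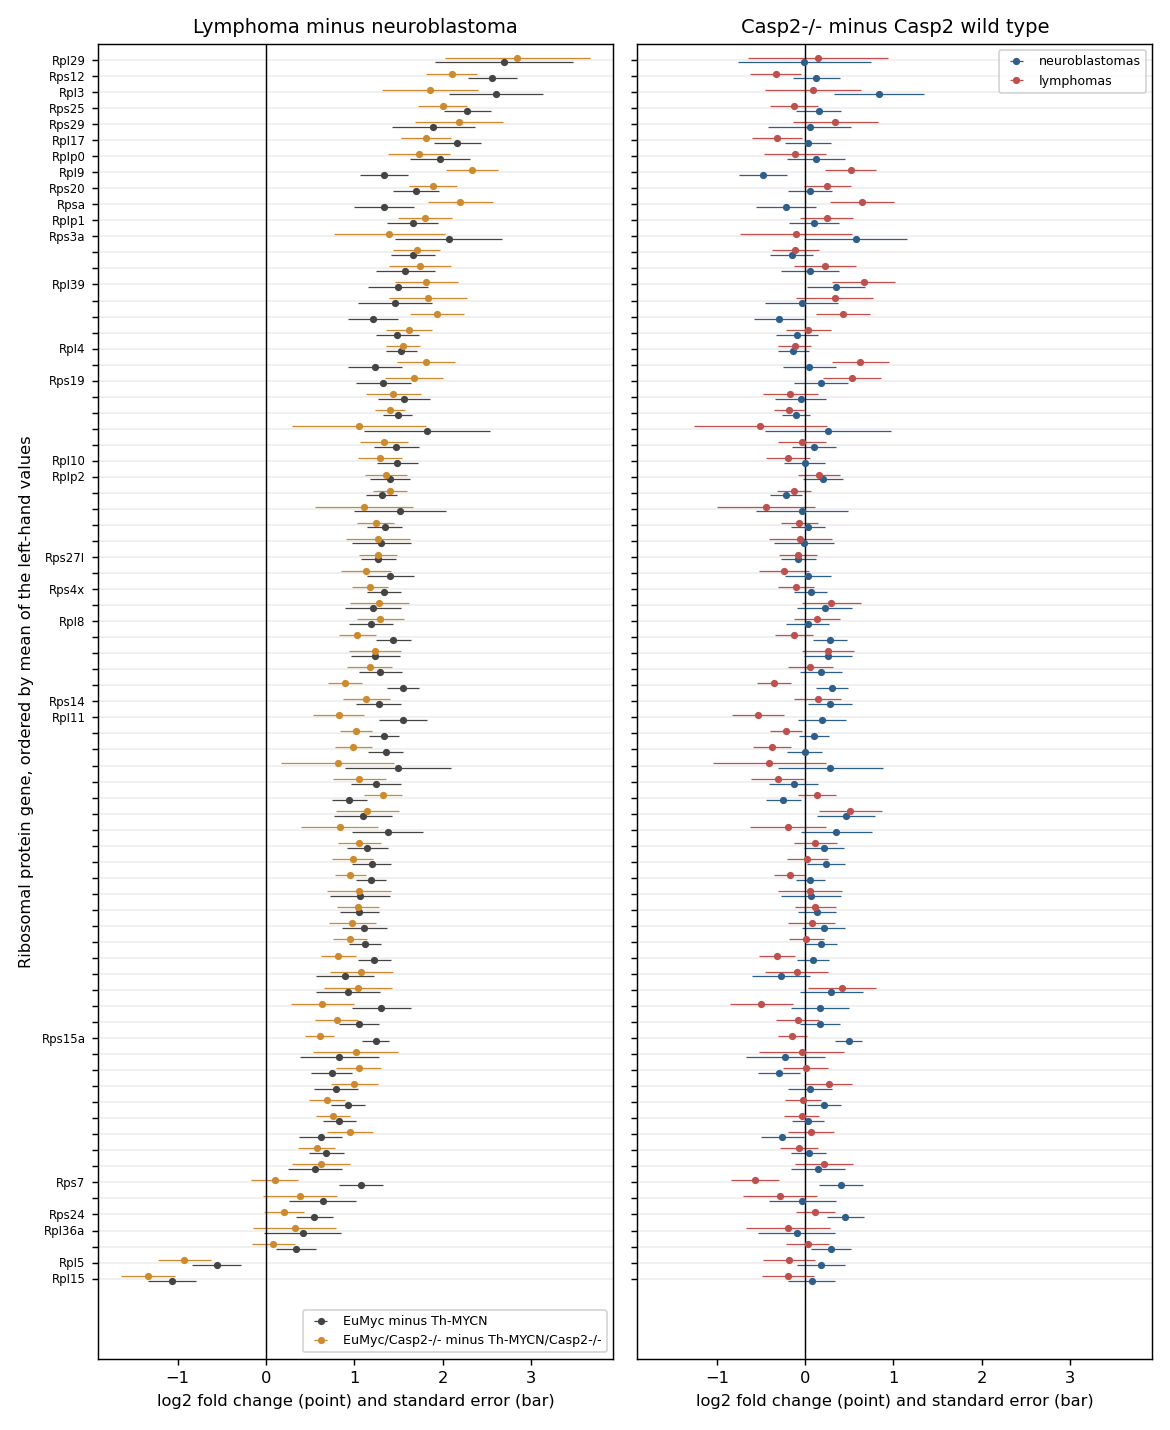
Log2 fold change with its SE for each of the 77 tested members, for both comparisons of tumor type (left) and both comparisons of Casp2 genotype (right), with names for most of the genes described in the text. In the left part the members center on 1.31 and 1.13 (0.0093 and -0.0481 with libraries scaled to the members' own reads), with Rpl15 lowest, and in the right part on 0.07 and -0.04. The value of -0.04, for the lymphomas, was -0.23 without EuMycC2ko215 and 0.12 without EuMyc614.

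Both subunits took part. Of 31 small subunit members 29 were higher in EμMyc than in Th-MYCN tumors and 26 in the comparison without Casp2. Of 45 tested large subunit members 40 and 35 were higher. The medians were 1.33 and 1.17 for the small and 1.24 and 1.05 for the large subunit. In 61 members the lowest of the 7 lymphomas was above the highest of the 8 neuroblastomas, which held for 16.6% of all tested genes.

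The stalk of the large subunit, built on Rplp0 with Rplp1 and Rplp2, recruits the factors of elongation. All 3 genes were higher in lymphomas. Rplp0 (GRCm38 chr5:115559467-115563727) had 3241, 2109, 2634 and 1977 CPM in EμMyc tumors and 2428, 2398 and 2060 CPM in EμMyc/Casp2-/- tumors. It had 659, 393, 1115 and 375 CPM in Th-MYCN and 797, 823, 359 and 782 CPM in Th-MYCN/Casp2-/- tumors. The types did not overlap, and the neuroblastomas differed among themselves by up to 3.11-fold, more than the lymphomas with 1.64-fold. The log2 fold change was 1.97 (SE 0.34, FDR 0.000132) between EμMyc and Th-MYCN tumors and 1.73 (SE 0.35, FDR 0.000641) between the Casp2-/- tumors. Rplp1 ranged from 1094 to 2770 CPM in the lymphomas and from 355 to 666 CPM in the neuroblastomas, with log2 fold changes of 1.66 (SE 0.29) and 1.80 (SE 0.30). For Rplp2, whose start carries the run shown above, they were 1.41 (SE 0.23) and 1.36 (SE 0.24).

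Rpl5 and Rpl11 form a particle with 5S ribosomal RNA, which can bind Mdm2 and hold p53 stable when ribosomes are not completed. The genes of this pair gave different values. Rpl11 had 15.9, 11.9, 16.9 and 14.0 CPM in EμMyc and 8.01, 10.8 and 11.5 CPM in EμMyc/Casp2-/- tumors, against 4.46 to 7.56 CPM in the neuroblastomas. All lymphomas were above all neuroblastomas, and the log2 fold changes were 1.55 (SE 0.27, FDR 0.000164) and 0.82 (SE 0.29, FDR 0.023). The second call was lost without EuMycC2ko245 (FDR 0.0777), MYCNC2ko118 (FDR 0.0563), MYCNC2ko144 (FDR 0.0508) or MYCNC2ko176 (FDR 0.0536).

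Rpl5 (chr5:107900502-107909005, plus strand) had lower values in the lymphomas in the counts used. It had 43.0, 75.3, 72.7 and 45.8 CPM in EμMyc and 57.0, 44.5 and 55.0 CPM in EμMyc/Casp2-/- tumors. The Th-MYCN tumors had 74.2, 86.9, 104 and 84.1 CPM and the Th-MYCN/Casp2-/- tumors 87.4, 110, 147 and 51.3 CPM. The types overlapped, and the log2 fold change was -0.56 (SE 0.27, FDR 0.0885) with Casp2 and -0.93 (SE 0.30, FDR 0.0159) without. The second value lost its call without EuMycC2ko239 (FDR 0.0805) or without MYCNC2ko176 (FDR 0.0537).

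This direction turned with the column of counts. The last exon of Rpl5 shares 953 bases (chr5:107908053-107909005) with the gene Fam69a on the opposite strand, which was named after its values were seen. The libraries do not mark strand, so reads of the shared stretch cannot be given to either gene. In the column that counts reads of either strand and leaves out those that fit both genes, Rpl5 kept 22.1% of its reads in the lymphomas and 4.44% in the neuroblastomas. There it had 10.7 to 15.3 CPM in the lymphomas and 2.86 to 4.93 CPM in the neuroblastomas, from 64 to 357 reads. The types did not overlap, and the log2 fold change was 1.63 (SE 0.27, FDR 8.21e-05) and 1.89 (SE 0.28, FDR 4.28e-05). In MYCN175 the counts used gave 1215 reads to Rpl5 and 1294 to Fam69a, and in EuMyc614 492 and 693. The direction of Rpl5 between tumor types is therefore reported for each column and for neither as its own.

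Around the peptidyl-transferase center and the exit tunnel of the large subunit, Rpl3, Rpl4, Rpl8, Rpl10, Rpl17 and Rpl39 were all higher in lymphomas in both comparisons. Rpl4, a tunnel protein and the most counted of the members shown with a start sequence, had 6337, 4086, 4128 and 3477 CPM in EμMyc and 4615, 3877 and 3957 CPM in EμMyc/Casp2-/- tumors. The gene had 1318 to 1722 CPM in Th-MYCN and 1276 to 1599 CPM in Th-MYCN/Casp2-/- tumors. No lymphoma reached down to the neuroblastomas, and the log2 fold changes were 1.53 (SE 0.18, FDR 3.06e-06) and 1.55 (SE 0.19, FDR 5.73e-06). Rpl8, in the catalytic core, had 1.19 (SE 0.25) and 1.29 (SE 0.26), and Rpl17, along the tunnel, 2.17 (SE 0.27) and 1.81 (SE 0.28). For Rpl17 the counts used held only 16.2% of the reads of both strand columns in the lymphomas, and a smaller part in the neuroblastomas. In the first strand column its values were 1.65 and 0.82, and in the either strand column 1.73 and 0.96, all called. The size of its difference without Casp2 thus depended on the column. Rpl10 joins the large subunit late and lies on the X chromosome. It ranged from 14.3 to 21.3 CPM in the lymphomas and from 5.50 to 7.78 CPM in the neuroblastomas (log2 fold change 1.49, SE 0.23, and 1.29, SE 0.25).

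Rpl39, a small X-linked protein of the tunnel, had 303, 179, 194 and 178 CPM in EμMyc and 653, 187 and 175 CPM in EμMyc/Casp2-/- tumors. The value of 653 CPM was in EuMycC2ko215. The Th-MYCN tumors had 68.2, 71.7, 83.9 and 78.3 CPM and the Th-MYCN/Casp2-/- tumors 105, 95.03, 98.4 and 86.1 CPM. All lymphomas were above all neuroblastomas, with log2 fold changes of 1.499 (SE 0.34, FDR 0.00132) and 1.81 (SE 0.36, FDR 0.000492). Without EuMycC2ko215 the second was 0.97 (SE 0.21, FDR 0.0011) and stayed called.

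Rpl29 and Rpl3 had some of the largest differences and a wide spread. Rpl29 (chr9:106429454-106431568), a large subunit protein without which mice are viable, had 87.7, 61.9, 53.4 and 58.1 CPM in EμMyc and 97.5, 62.4 and 56.6 CPM in EμMyc/Casp2-/- tumors. In Th-MYCN tumors it had 0.916, 17.2, 2.02 and 20.3 CPM, and in Th-MYCN/Casp2-/- tumors 14.8, 10.3, 1.25 and 13.6 CPM. All lymphomas were higher, while 3 neuroblastomas (MYCN175, MYCN332 and MYCNC2ko176) lay far below the other 5. The log2 fold change was 2.69 (SE 0.78, FDR 0.00777) and 2.85 (SE 0.82, FDR 0.0077). Without MYCN391 the first was 3.29 (SE 0.88, FDR 0.0053).

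Rpl3 (chr15:80077791-80091868), which reaches into the catalytic center, had 244, 226, 172 and 131 CPM in EμMyc and 290, 191 and 136 CPM in EμMyc/Casp2-/- tumors. It had 10.4, 52.6, 52.6 and 11.9 CPM in Th-MYCN and 48.3, 35.7, 36.6 and 107 CPM in Th-MYCN/Casp2-/- tumors. The types did not overlap, and MYCN175 and MYCN391 were the lowest. The log2 fold changes were 2.60 (SE 0.53, FDR 0.000614) and 1.86 (SE 0.55, FDR 0.00864).

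Rpl9 had 17.2, 21.4, 18.0 and 15.0 CPM in EμMyc and 39.7, 18.8 and 18.7 CPM in EμMyc/Casp2-/- tumors, against 6.11 to 7.45 CPM in Th-MYCN and 4.63 to 5.47 CPM in Th-MYCN/Casp2-/- tumors. The types did not overlap, nor did the genotypes of neuroblastoma. The log2 fold change was 1.34 (SE 0.27, FDR 0.000601) with Casp2 and 2.34 (SE 0.30, FDR 8.02e-06) without, and the interaction was 1.00 (SE 0.40, FDR 0.587). In the first strand column the values with and without Casp2 were 1.42 and 1.58, and in the either strand column 1.39 and 1.98, all called. The gap between them thus depended on the column, and the interaction of Rpl9 is not given for these columns. The value of 39.7 CPM was in EuMycC2ko215, and the results for Rpl9 without that tumor are not given.

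Rpl15 was the only member called lower in the lymphomas in both comparisons. It lies at chr14:18267823-18271391 and encodes a large subunit protein, and inherited loss of its human counterpart causes Diamond-Blackfan anemia. It had 74.5, 83.2, 80.9 and 63.4 CPM in EμMyc and 74.6, 68.1 and 55.4 CPM in EμMyc/Casp2-/- tumors. The Th-MYCN tumors had 115, 148, 204 and 167 CPM and the Th-MYCN/Casp2-/- tumors 174, 176, 240 and 76.0 CPM. All neuroblastomas but MYCNC2ko180 lay above every lymphoma. That tumor overlapped the EμMyc group and lay just above the EμMyc/Casp2-/- group. The log2 fold change was -1.07 (SE 0.27, FDR 0.00317) and -1.34 (SE 0.30, FDR 0.00144). Reads of the other strand of the same libraries, a column added after the data were seen, gave -0.90 and -1.20, and reads of either strand -0.97 and -1.27.

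Rpl36a, an X-linked protein near the exit site, was called in neither comparison, with 1.76 to 5.28 CPM in the lymphomas and 1.16 to 3.58 CPM in the neuroblastomas (log2 fold change 0.42, SE 0.44, and 0.32, SE 0.47). Without single tumors the first ran down to 0.16 (without EuMyc829) and the second from 0.0563 (without EuMycC2ko239) to 0.64 (without EuMycC2ko215), none of them called. At such low counts the 95% interval in EμMyc against Th-MYCN ran from -0.51 to 1.35. In the first strand column it was called higher in both comparisons, at 0.70 (SE 0.22, FDR 0.0126) and 1.06 (SE 0.24, FDR 0.00131), and likewise in the either strand column. Rpl27, Rpl28, Rps23 and Rps27 were the other members called in neither, and are named after their values were seen.

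**Figure D3:**
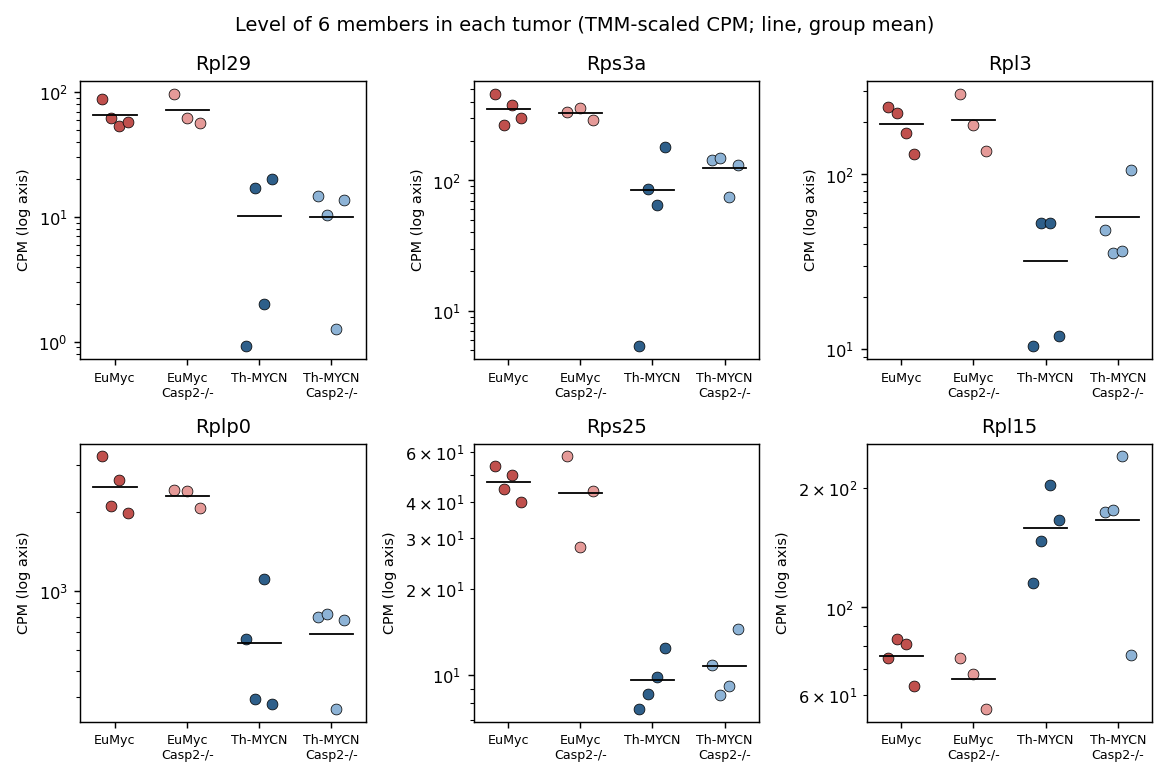
CPM of Rpl29, Rps3a, Rpl3, Rplp0, Rps25 and Rpl15 in each tumor by group, on a log axis. Rpl29 reaches 0.916 CPM and Rps3a 5.31 CPM in MYCN175, and Rpl15 is the only one of the 6 that is lower in lymphomas.

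In the small subunit, large differences were found for Rps12, Rps25, Rps20 and Rpsa. Rps25 (chr9:44407139-44410427) lies in the head and is needed for entry at some internal ribosome sites. It had 53.6, 44.4, 49.8 and 40.03 CPM in EμMyc and 57.8, 28.0 and 43.7 CPM in EμMyc/Casp2-/- tumors, against 7.64, 8.64, 9.87 and 12.5 CPM in Th-MYCN and 10.9, 8.55, 9.16 and 14.5 CPM in Th-MYCN/Casp2-/- tumors. The types were well apart, and the log2 fold changes were 2.28 (SE 0.26, FDR 2.63e-06) and 2.0 (SE 0.28, FDR 1.85e-05). The counts used held only 5.60% of the Rps25 reads of both strand columns in the lymphomas and 4.22% in the neuroblastomas. In the first strand column the values were 1.83 and 1.39, and in the either strand column 1.87 and 1.43, all called. Rps12 had a range from 16.5 to 38.3 CPM in the lymphomas and from 3.85 to 6.05 CPM in the neuroblastomas, with 2.56 (SE 0.28, FDR 1.32e-06) and 2.10 (SE 0.29, FDR 1.79e-05). Rps29, another protein of the head, had only 2.52 to 5.67 CPM in the lymphomas and 0.432 to 1.45 CPM in the neuroblastomas, with 1.90 (SE 0.47) and 2.19 (SE 0.50). It passed the filter through the lymphomas alone, so its direction was fixed in part by the filter. Of the Rps29 reads of both strand columns, the counts used held only 17.0% in the lymphomas and 10.3% in the neuroblastomas. In the first strand column its values were 1.30 and 0.95, and in the either strand column 1.38 and 1.14, all called.

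Rps20, in the head, had 589, 336, 421 and 299 CPM in EμMyc and 776, 382 and 312 CPM in EμMyc/Casp2-/- tumors. All 8 neuroblastomas lay between 122 and 139 CPM, a spread of only 1.14-fold. The log2 fold changes were 1.70 (SE 0.26, FDR 4.01e-05) and 1.90 (SE 0.27, FDR 2.7e-05). The value of 776 CPM was in EuMycC2ko215, and the second fold change of Rps20 without that tumor is not given. Rpsa, also known as the laminin receptor, had 1.34 (SE 0.34) and 2.20 (SE 0.37), with its highest value of 139 CPM in EuMycC2ko215 and 35.0 to 70.0 CPM in the other lymphomas. Without that tumor its second value was 1.45 (SE 0.25, FDR 0.000253). Rps19, the gene most often mutated in Diamond-Blackfan anemia, had 1.33 (SE 0.31) and 1.68 (SE 0.33), with 1070 CPM in the same tumor and 318 to 573 CPM in the other lymphomas, and without it 0.96 (SE 0.20, FDR 0.00116). X-linked Rps4x had 1.34 (SE 0.19) and 1.17 (SE 0.20). Rps14, of the platform, had 1.28 (SE 0.25) with Casp2 and 1.14 (SE 0.27) without, the latter 0.71 (SE 0.21, FDR 0.00984) when EuMycC2ko215 was left out.

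Rps3a (chr3:86137940-86142702), named after its values were seen, had the widest spread of all members among the neuroblastomas. It had 464, 267, 383 and 299 CPM in EμMyc and 334, 362 and 291 CPM in EμMyc/Casp2-/- tumors. The Th-MYCN tumors had 5.31, 85.8, 64.5 and 181 CPM and the Th-MYCN/Casp2-/- tumors 145, 149.9, 74.2 and 132 CPM. All lymphomas were higher, and MYCN175 lay 34.1-fold below the highest neuroblastoma. The log2 fold change was 2.07 (SE 0.61, FDR 0.00826) with Casp2 and 1.39 (SE 0.63, FDR 0.0695) without, so that only the first was called. Without MYCN391 the first was 2.77 (SE 0.62, FDR 0.00157).

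The low values of single neuroblastomas were seen again in other reads of the same libraries. Reads of the opposite strand column gave Rps3a 13.1 CPM in MYCN175 and 160 to 481 CPM in the other neuroblastomas. They gave Rpl29 1.42, 3.64 and 2.14 CPM in MYCN175, MYCN332 and MYCNC2ko176, against 12.2 to 23.3 CPM in the rest. For Rpl3 they gave 10.0 and 10.1 CPM in MYCN175 and MYCN391, against 24.5 to 73.1 CPM. The tumors that were low differed from gene to gene. MYCN175 was low in Rps3a, Rpl29 and Rpl3, while MYCN391 was low in Rpl3 and Rplp0 and had the highest Rps3a and Rpl29 values of the 8 neuroblastomas. These are other reads of the same RNA and not another sample.

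The columns also showed how uneven the counts of these genes are. The libraries were not stranded, and the second strand column held 48.8% to 49.3% of the reads of both strand columns in each tumor. For single members, however, the second strand held from 1.76% to 87.8% of both in the lymphomas and from 1.28% to 91.6% in the neuroblastomas. The share lay outside 40% to 60% for 43 of 77 members in the lymphomas (55.8%) and 47 in the neuroblastomas (61.0%), against 7.77% and 3.60% of all tested genes. Even so, 70 and 67 members were higher in the first strand column, and 67 and 60 were higher in all 3 columns in the 2 comparisons.

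**Figure D4:**
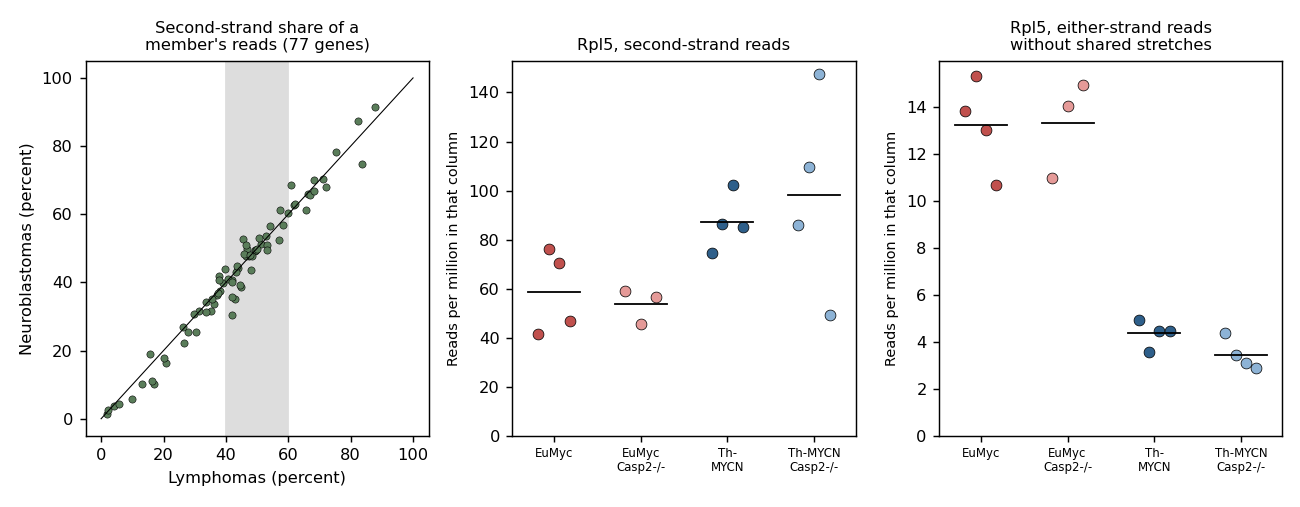
Left, percent of the reads of both strand columns that lie in the second strand column, per member, in lymphomas (x) and neuroblastomas (y), with a grey band from 40% to 60%. Middle and right, Rpl5 reads scaled to the total of each column, by group, in the second strand and in the either strand column, with the group mean as a line, between which the order of the tumor types turns.

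The uniqueness of the transcripts varied as much. Of all 50-base windows of a transcript, the length of the reads, from 1.35% (Rps27) to 100% were found in no transcript of another gene, with a median of 40% over the 77 tested members. Mean levels per kilobase of transcript ran from 3.03 (Rpl30) to 3412 (Rpl8) CPM per kb in the lymphomas, with a median of 147, and from 1.08 to 1452 CPM per kb in the neuroblastomas, with a median of 67.2. Rpl8, Rplp1, Rpl4 and Rps14 were among the members with most reads per kb. Spearman's rho of the level with the unique part was 0.51 in both tumor types across the 77 genes, which share libraries and are not independent. For Rpl30, named after its values were seen, 0 to 30 reads per tumor were counted, with 23.6% of its windows unique. For this reason differences were taken within a gene and not between genes.

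**Figure D5:**
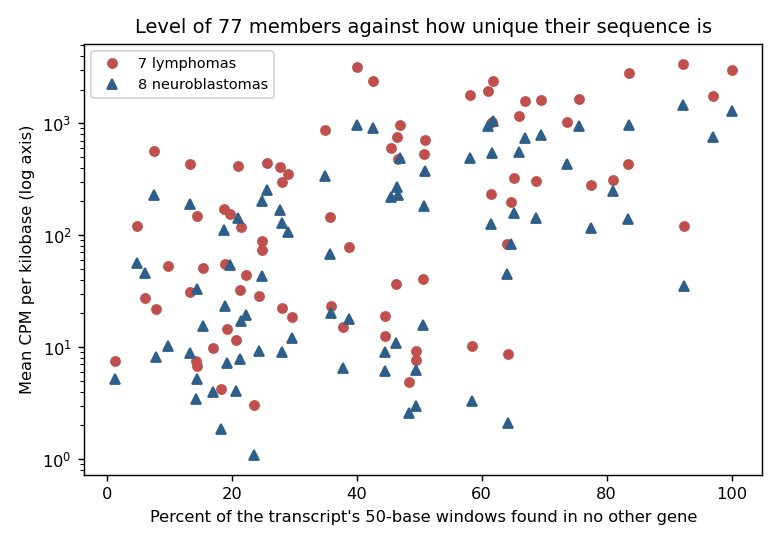
Mean CPM per kb of transcript (log axis) of each tested member against the percent of its 50-base windows that no other gene shares, for lymphomas and neuroblastomas. Levels span 3.03 to 3412 CPM per kb in the lymphomas, and the same member lies higher in lymphomas for nearly all genes.

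The members were also divided by this property. The median log2 fold change was 1.24 and 1.06 in the 27 members with at least 50% unique windows, and 1.34 and 1.14 in the other 50. Of the 27 members 27 and 26 were called higher, and of the 50 members 43 and 36. The start sequences were compared in the same way. The 28 genes with a run of C and T had medians of 1.27 and 1.08, and the 28 tested genes with a promoter sequence but no run had 1.30 and 1.12. The 6 genes with an E-box lay between 1.12 and 1.56 and between 0.95 and 1.68.

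No member was called between Casp2 genotypes. In the comparison of Th-MYCN/Casp2-/- with Th-MYCN tumors the quasi-likelihood test called 0 of 77 members and 0.0336% of all tested genes, and edgeR's likelihood ratio test and DESeq2 called 0 members as well, against 0.894% and 0.948% of all tested genes. At an unadjusted p under 0.05 there were 2 members, or 2.60%, against 6.77% of all tested genes. The median log2 fold change was 0.07 (-0.04 with libraries scaled to the members' reads, which moved that of all tested genes to -0.12), and for 63 members the 95% interval lay within 1 on the log2 scale on either side of 0. For the other members the interval reached beyond a 2-fold difference. The 4 endothelial markers summed to 43.8 to 67.9 CPM in Th-MYCN and 17.5 to 29.2 CPM in Th-MYCN/Casp2-/- tumors, with none at 0. The 6 sympathoadrenal markers, with none at 0 either, summed to 3041 to 3254 CPM and to 1798 to 2784 CPM. Neither list overlapped between the genotypes, and their part in this comparison was not tested.

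The 2 members, both of the small subunit and named after their values were seen, were Rps15a and Rps24. Rps15a had 193, 183, 200.2 and 221 CPM in Th-MYCN and 292, 304, 258 and 269 CPM in Th-MYCN/Casp2-/- tumors. The groups did not overlap, but the log2 fold change of 0.49 (SE 0.15) had an FDR of 0.35. Rps24 had 316, 327, 355 and 338 CPM and 404, 407, 624 and 398 CPM, with 0.46 (SE 0.21, FDR 0.727). Together with Rpl39, 3 members did not overlap and were higher in the Casp2-/- tumors, as were 2.94% of all tested genes, and Rpl9 alone did not overlap and was lower, as were 3.68%.

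In the lymphomas 0 of 77 members were called between EμMyc/Casp2-/- and EμMyc tumors, against 0.141% of all tested genes. At an unadjusted p under 0.05 there were 0 members, against 8.53% of all tested genes, and the likelihood ratio test and DESeq2 called 0 too, against 1.499% and 1.47% of all tested genes. The median log2 fold change was -0.04, and 53 intervals lay within 1 on either side of 0. Without EuMycC2ko215 this median was -0.23 and without EuMyc614 0.12, so its direction depended on single tumors. In 4 members, among them Rpl11, Rpl38 and Rps7, the groups did not overlap and the Casp2-/- tumors were lower, as were 1.96% of all tested genes, and 0 members did so and were higher, as were 1.75%. The counts used held only 1.76% of the Rpl38 and 2.06% of the Rps7 reads of both strand columns in the lymphomas. Rpl11 had a log2 fold change of -0.54 (SE 0.29, FDR 0.662). The share of reads was 3.74% ± 1.26 (SD, n = 3) in EμMyc/Casp2-/- and 3.49% ± 0.816 (SD, n = 4) in EμMyc tumors, and without EuMycC2ko215 the first was 3.02%, so the order rested on that tumor. In the neuroblastomas the shares were 1.52% ± 0.109 and 1.42% ± 0.104 (SD, n = 4 each).

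The difference of the genotype effect between tumor types was tested as an interaction. It called 0 of 77 members and 0.0538% of all tested genes, and by the likelihood ratio test and DESeq2 0 members, against 0.914% and 0.847% of all tested genes. At an unadjusted p under 0.05 there were 4 members, or 5.19%, among them Rps15a, Rps7 and Rpl9, against 7.57% of all tested genes. Rps7 had 18.6, 17.5, 21.1 and 14.1 CPM in EμMyc and 12.5, 11.2 and 12.4 CPM in EμMyc/Casp2-/- tumors. In the neuroblastomas it had 6.23, 8.57, 8.77 and 10.4 CPM with and 13.5, 10.9, 8.87 and 11.7 CPM without Casp2, and the interaction was -0.98 (SE 0.36, FDR 0.54). The counts used held only 2.06% of the Rps7 reads of both strand columns in the lymphomas and 2.53% in the neuroblastomas. Between tumor types these counts gave 1.07 with and 0.10 without Casp2, and the first strand column gave 1.19 and 0.71. The interaction is not given for that column.

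The balance of the subunits was described by the log2 ratio of reads on small to reads on large subunit genes within a tumor, which does not depend on the scaling of libraries. It was -0.47 ± 0.0699 in EμMyc, -0.43 ± 0.109 in EμMyc/Casp2-/-, -0.35 ± 0.104 in Th-MYCN and -0.19 ± 0.0426 in Th-MYCN/Casp2-/- tumors (SD). The 2 groups of neuroblastomas did not overlap and differed by 0.16. Taken from the medians of log2 CPM over the genes of each subunit, the same difference was -0.0185, with the order of the groups turned. The other differences turned as well, from -0.12 and -0.23 to 0.52 and 0.33 between tumor types with and without Casp2, and from 0.04 to -0.22 between the genotypes of lymphoma.

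Of the paralogs, Rps27l, a p53 target gene that resembles Rps27, was well counted, with 576 to 2287 reads per tumor. It had 145, 196, 124 and 112 CPM in EμMyc and 149, 139 and 121 CPM in EμMyc/Casp2-/- tumors, against 45.9 to 77.7 CPM in the neuroblastomas. The types did not overlap, and the log2 fold change was 1.27 (SE 0.20, FDR 5.79e-05) and 1.27 (SE 0.21, FDR 0.000117). Between genotypes it was -0.08 (SE 0.20, FDR 1) in the neuroblastomas and -0.08 (SE 0.21, FDR 0.943) in the lymphomas.

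The other paralogs under the rule had few or no reads. Rpl3l, whose protein replaces Rpl3 in heart and skeletal muscle, had 0 to 23 reads per tumor, and Rpl39l and Rpl10l, known from testis, had 0 to 8 and 0 to 1. Rpl26 of the main set had 0 reads in all 15 tumors, where a floor of 3 reads corresponds to 0.173 to 0.586 CPM. A count of 0 covers unique reads of 1 column only and does not show that the gene was silent.

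Paralogs outside the symbol rule gave further comparisons. Rpl36al and Rpl7l1 were higher in both, with log2 fold changes of 1.42 (SE 0.16, FDR 2.66e-06) and 0.82 (SE 0.17, FDR 0.000909) and of 1.08 (SE 0.15, FDR 1.56e-05) and 1.09 (SE 0.16, FDR 2.89e-05). Rpl22l1, the paralog of Rpl22, which T-cell development requires, had 133, 109.8, 31.1 and 28.1 CPM in EμMyc and 176, 97.99 and 22.6 CPM in EμMyc/Casp2-/- tumors. In the neuroblastomas it had 35.3 to 94.0 CPM. The lymphomas fell on both sides of the neuroblastomas, and the log2 fold changes of 0.48 (SE 0.55, FDR 0.468) and 0.74 (SE 0.59, FDR 0.296) were not called. Without EuMycC2ko215 the second was 0.0893 (SE 0.64, FDR 0.913), and without single EμMyc tumors the first ran from 0.10 to 0.76. Measured against the parent gene, the mean log2 ratio of lymphomas minus neuroblastomas was -0.51 for Rpl22l1, 0.76 for Rps27l, 0.78 for Rpl36al and 0.02 for Rpl7l1, and for each of them the 2 types overlapped.

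Other genes of the translation apparatus were counted for comparison. Gnb2l1 and Fau, for ribosomal proteins outside the symbol rule, were higher in both comparisons of tumor type, with log2 fold changes of 1.01 to 1.45. For this and the lists that follow, 27.4% of all tested genes were called higher and 32.9% lower with Casp2. Without Casp2 these shares were 26.8% and 31.4%. Of 14 genes for elongation factors and other TOP messages 10 were higher and 1 lower with Casp2, and 9 and 1 without. Pabpc1, the poly(A) binding protein, had the largest rise at 2.11 (SE 0.26) and 1.97 (SE 0.28), and Hnrnpa1, a splicing factor, the largest fall at -1.53 (SE 0.27) and -1.61 (SE 0.30). Of 6 hosts of small nucleolar RNAs 6 and 5 were higher, with Gas5 highest at 1.57 (SE 0.24) and 1.59 (SE 0.25). The 76 genes of the mitochondrial ribosome had smaller differences, with 40 higher and 2 lower, and 44 higher and 1 lower, and with medians of 0.52 and 0.62 against 1.31 and 1.13 for the cytosolic members. Of 6 ribosomal protein pseudogenes only Rps19-ps3 passed the filter, and it was not called. None of these lists held a gene called between genotypes.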

How the data were processed

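RNA of 15 mouse tumors was sequenced as single-end 50-base reads on an Illumina HiSeq 2000 from poly(A) libraries. The authors aligned reads with STAR to mm10 and deposited whole-number counts of uniquely mapped reads per gene, with 1 column each for reads of either, the first and the second strand. The second strand column was used, as in the earlier processing of these data. Its totals were 4940464 to 17638029 reads per tumor, and 3 reads, taken as the floor, were worth 0.173 to 0.586 CPM (counting error alone). The annotation release used for counting is not given in the sources used here.

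A gene was tested if 3 or more tumors exceeded 1 CPM (14880 of 23329). Libraries were scaled by TMM, and edgeR 4.0.16 (R 4.3.3) was fitted to all 15 tumors with 4 group means. The quasi-likelihood test was used with Benjamini-Hochberg adjustment over all tested genes and an FDR under 0.05. The study's own test, the likelihood ratio test, was run as an alternative. The SE is the absolute log2 fold change divided by the square root of F. All 21 pairs of tumors within a group differed beyond counting noise (chi-square per degree of freedom 16.2 to 76.0). P-values compare tumors, with 1 tumor per library. Shares, subunit ratios and paralog ratios (0.5 added to reads) are descriptions and were not tested.

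Positions and transcripts came from GENCODE vM21 and start sequences from RefSeq, both on GRCm38. Named genes were the members called between genotypes, up to 10 per direction with the largest difference called in both comparisons of tumor type, the stalk and 5S genes, Rps19, X-linked members, paralogs, the 5 members with most reads per kb, and the extremes of the companion lists. Some genes that this rule takes are not reported here. The members, lists and tests were chosen with earlier results of these data known. Alternatives were other scalings (DESeq2 1.42.0 among them), filters, columns and left-out tumors, and the first strand column was added after the data were seen. The code was tested on simulated data.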

Additional observations from a re-analysis of the deposited data

Results flagged for a closer look

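Among 102 groups of 4 tumors examined, 7 (6.86%) had 1 tumor whose gap to the nearest other tumor was large against the whole range of its group, where chance gives about 1 in 20. In Th-MYCN/Casp2-/- tumors MYCNC2ko180 had the members at 1.69% of reads, against 1.46% to 1.49% in the others. The same tumor had Rps12 at 4.39 CPM (others 5.55 to 5.72 CPM) and Rplp2 at 211 CPM (others 125 to 139 CPM). MYCNC2ko176 had Rplp0 at 359 CPM (others 782 to 823 CPM), and MYCNC2ko118 had Rpl36a at 1.73 CPM (others 2.63 to 2.70 CPM). In Th-MYCN tumors MYCN175 had Rpl9 at 6.11 CPM (others 7.35 to 7.45 CPM). In EμMyc tumors EuMyc614 had Rpl39 at 303 CPM (others 178 to 194 CPM).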

How the results depend on the processing

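No paired analysis was run, because the groups hold tumors of different mice and a shared replicate number does not make a pair. Under all alternatives run, 0 members were called between genotypes or in the interaction. Leaving out 1 tumor at a time gave 64 to 70 members higher in EμMyc than in Th-MYCN tumors, 58 to 63 higher and 1 to 2 lower in EμMyc/Casp2-/- than in Th-MYCN/Casp2-/- tumors. Scaling to the members' own reads gave 4 higher and 9 lower with Casp2 and 7 higher and 9 lower without, and called 9598 and 8766 of all tested genes lower. By its construction this scaling takes out what the members share. A fit of only the groups compared gave 2 lower with Casp2, and the either and the first strand columns gave 1 lower without Casp2. The subunit ratio by medians reversed all 4 differences and was -0.0185 between genotypes of neuroblastoma, -0.22 of lymphoma, and 0.52 and 0.33 between tumor types with and without Casp2. The cause was not tested. With the either strand column Rpl5 turned to 1.63 and 1.89. With the members' own reads the log2 fold changes with Casp2 were -0.11 for Rpl8, -0.0301 for Rps14, -0.0029 for Rps27l and -0.18 for Rpl7l1. Without Casp2 they were -0.26 for Rpl11, -0.0218 for Rps4x, -0.14 for Rps14, -0.29 for Rpl36al and -0.0389 for Rpl7l1. Of 1556 values of single genes under alternatives, 11 were counted as reversed, 35 lost and 6 gained a call. The other 1504 were counted as the same. These include uncalled values that changed sign, such as those of Rpl36a and Rpl22l1 with the members' own reads. The smallest library limits what can be seen at low counts.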
